A study of Mus musculus with 67 samples.

Results

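Host monocytes sorted from the spleen were compared with host monocytes sorted from the blood of C57BL/6 mice that had received grafted monocytes. They are 12 of the 67 libraries of the series, taken by their labels: 6 from spleen and 6 from blood, with 2 libraries, named A and B, for each of 3 sort gates in each tissue. The gates are called Ly6C+, Ly6Cint and Ly6C- by the sample characteristics, while the sample titles name the same gates after Gr1. All 12 libraries came from mice of 8 weeks and from host cells taken 24 h after the transfer. No allele or drug is named for any of them. Spleen cells were sorted by flow cytometry (FACS) after red cells had been lysed in ACK buffer, and blood cells after a Ficoll density gradient. Tissue and preparation therefore cannot be told apart. The labels give neither the number of animals nor which libraries share one. The sex-linked reads below show that spleen A and spleen B libraries came from different animals. Both blood letters held Xist, so these reads do not tell blood A from blood B. The p-values then measure only the spread between these libraries, which in blood may be technical. The grafted monocytes of the same deposited table, sorted from spleen and blood of mice of 8 weeks at 24, 36 and 48 h after transfer (2 libraries per tissue and time), serve below for comparison.

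Monocytes leave the bone marrow as Ly6C+ cells that can enter inflamed tissue, and part of them convert in the circulation to Ly6C- cells that patrol the vessel wall, with Ly6Cint cells in between. The spleen holds a reservoir of monocytes in its red pulp, beside red pulp macrophages, dendritic cells and large numbers of lymphocytes. Immediate early genes such as Fos and Jun are transcribed within minutes of a stimulus, without new protein synthesis, and are known to respond to the handling of cells as well as to signals inside the animal.

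Levels are given in ppm, a gene's per-million share of the total deposited for its library. Reads inferred from the smallest step of the values numbered 739494 to 1136323 per spleen library and 502687 to 1180802 per blood library, so that 1 read was worth 0.847 to 1.989 ppm. The defining genes of monocytes were present in all 12 libraries. Csf1r, the receptor for macrophage colony-stimulating factor, stood at 1018 to 1892 ppm in spleen and 1258 to 2328 in blood. Cx3cr1, the fractalkine receptor, stood at 558 to 823 in spleen and 592 to 899 in blood. The 3 spleen A libraries stood apart in their sex-linked transcripts. They held Ddx3y, a Y-linked gene, at 28.5 to 50.0 ppm and Xist, made from the inactive X chromosome, at 7.89 to 14.9, whereas the other 9 libraries held Ddx3y at 0 to 2.19 and Xist at 285 to 596. So the 3 spleen A libraries held male and the 3 spleen B libraries female transcripts, and whether the gates of 1 letter share animals is not given in the sources used here. Results are therefore also given without the 3 spleen A libraries for many of the genes and lists. Where no such result stands, a call may end in that fit, as for Vcam1 and Tnfaip2 (limma adjusted p = 0.0682 and 0.0839). In such bulk samples, fewer cells of a type and less RNA per cell cannot be told apart.

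With the sort gate as a block, limma on log2(ppm + 1) called 397 of 11433 genes at a Benjamini-Hochberg adjusted p under 0.05, which is 3.47% of the genes tested. Of these, 262 were higher in spleen (2.29%) and 135 were lower (1.18%), and 147 and 58 of them passed a log2 difference of 1 in size. The median log2 difference of all genes was 0.07. The 6 libraries of a tissue were fitted as independent, yet the deviations of libraries of 1 letter were weakly correlated between gates. Over 6468 genes, B-minus-A differences correlated at 0.113 to 0.2 between the spleen gates and at 0.00815 to 0.151 between the blood gates. Between different gates of the 2 tissues the correlation reached 0.138. With libraries of 1 tissue and letter as a correlated set, the estimated correlation was -0.0212, and limma called 298 genes higher and 156 lower. With 1 mean per tissue and letter in place of 3 libraries, limma called 178 genes, 109 higher and 69 lower, and 166 of them were among the 397. Of 109 called genes looked at singly, 31 then lost their call, among them Icosl, Lilra5, Klf4, Cxcl9, Ccl2, Hsph1, Dnajb1, Stat2 and Hbb-b2. With median-ratio scaling the split was 225 higher and 179 lower. Of the 262 genes called higher, 248 had a positive difference in each gate, and of the 135 called lower, 128 had a negative one in each gate. With the 3 spleen A libraries left out, 91 genes were called, 38 higher and 53 lower, and 87 of the 91 were among the 397. Without the Ly6Cint gate 54 were higher and 58 lower, and without the Ly6C- gate 26 were higher and 48 lower, so that the excess of higher genes was not kept in these fits. Leaving out 1 library moved the count by over 1.5 times for spleen Ly6Cint A (169 called), spleen Ly6C- A (227), spleen Ly6C- B (218) and blood Ly6C- B (250).

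Tested gate by gate, with 2 libraries of each tissue per gate, 18 genes were called in the Ly6C+ gate (0.157%), 63 in the Ly6Cint gate (0.551%) and 118 in the Ly6C- gate (1.03%). In the Ly6C+ gate 17 genes were lower in spleen (0.149%) and 1, F630028O10Rik, was higher (0.00875%). In the Ly6Cint gate 37 were higher (0.324%) and 26 lower (0.227%). In the Ly6C- gate 93 were higher (0.813%) and 25 lower (0.219%). Of the genes lower in spleen, the Ly6C+ and Ly6Cint gates shared 9 (52.9% of the Ly6C+ genes and 34.6% of the Ly6Cint genes), and the Ly6Cint and Ly6C- gates shared 13 (50% of the Ly6Cint genes and 52% of the Ly6C- genes). Among the genes higher in spleen, the Ly6Cint and Ly6C- gates shared 14, or 37.8% of the Ly6Cint genes and 15.1% of the Ly6C- genes. Leaving out the 3 spleen A libraries, and with them all but 1 spleen library per gate, limma called 0 genes in each gate, against 484, 743 and 729 at an unadjusted p under 0.05 in the Ly6C+, Ly6Cint and Ly6C- gates. Leaving out 1 library at a time gave 4 to 21 calls in the Ly6C+ gate (fewest without spleen Ly6C+ B), 5 to 147 in the Ly6Cint gate (fewest without spleen Ly6Cint A, most without blood Ly6Cint B) and 31 to 154 in the Ly6C- gate (fewest without spleen Ly6C- A, 33 without spleen Ly6C- B and 44 without blood Ly6C- B).

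Genes called in all 3 gates numbered 7 (0.0612% of those tested), and all 7 were lower in spleen: Fos, Jun, Dusp1, Zfp36, Socs3, Hspa1a and Fcrls. No gene was called higher in spleen in all 3 gates by limma, where 31 genes had an unadjusted p under 0.05 in each gate. Dusp1, Fos and Jun kept their calls in all 3 gates in each of the 12 fits that left out 1 library. Socs3 kept them in 3 of the 12 fits, and Zfp36, Hspa1a and Fcrls in 2 of 12, with the loss of any 1 of the 6 spleen libraries enough to end the call of each. Over the gates all 7 stayed called in 12 of 12.

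Fos and Jun encode subunits of the transcription factor AP-1. Fos had 157 and 280.1 ppm in the Ly6C+ gate, 77.1 and 71.9 in the Ly6Cint gate and 34.6 and 48.2 in the Ly6C- gate in spleen, against 1700.2 and 1209 ppm in the Ly6C+ gate, 839 and 566 in the Ly6Cint gate and 812 and 392.3 in the Ly6C- gate in blood. Its 6 spleen libraries all lay below its 6 blood libraries, and in both tissues the Ly6C+ gate was the highest. Over the gates Fos fell by 3.24 ± 0.19 on the log2 scale (SE, limma adjusted p = 2.97e-11). Within the gates its differences were -2.77 in Ly6C+, -3.19 in Ly6Cint and -3.76 in Ly6C- cells. Jun had 21.0 and 32.4 ppm in the Ly6C+ gate, 59.6 and 78.0 in the Ly6Cint gate and 132 and 114 in the Ly6C- gate in spleen, against 278 and 243 ppm in the Ly6C+ gate, 364 and 369 in the Ly6Cint gate and 440.0 and 326 in the Ly6C- gate in blood. Its spleen values were in the order opposite to that of Fos, lowest in the Ly6C+ gate and highest in the Ly6C- gate. None reached the blood values. The difference of Jun over the gates was -2.43 ± 0.19 (log2, SE, limma adjusted p = 1.72e-08). It ran from -3.27 in the Ly6C+ gate to -1.62 in the Ly6C- gate, with an adjusted p of 0.245 for a difference between gates.

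Dusp1 encodes a phosphatase that switches off MAP kinases. It had 22.8 and 32.4 ppm in the Ly6C+ gate, 25.9 and 27.6 in the Ly6Cint gate and 45.1 and 49.5 in the Ly6C- gate in spleen and 463 and 311 ppm in the Ly6C+ gate, 233 and 269.9 in the Ly6Cint gate and 614 and 418 in the Ly6C- gate in blood. The highest spleen library stayed below the lowest blood library, and the fall of 3.44 ± 0.15 on the log2 scale had the smallest adjusted p of these genes (limma, 1.38e-13). Zfp36, or tristetraprolin, binds AU-rich elements and speeds the decay of cytokine mRNAs. Zfp36 ranged over 139 to 238 ppm in spleen and 327 to 662 in blood, again without overlap, for a log2 difference of -1.28 ± 0.14 (limma adjusted p = 2.65e-06). Socs3, a feedback inhibitor of cytokine receptor signalling, had 67.0 and 58.3 ppm in the Ly6C+ gate, 137 and 143 in the Ly6Cint gate and 218 and 172 in the Ly6C- gate in spleen and 161 and 181 ppm in the Ly6C+ gate, 312 and 435 in the Ly6Cint gate and 387 and 362 in the Ly6C- gate in blood. Each gate was lower in spleen, while the ranges over all gates overlapped with the Ly6C+ gate low in both tissues, and the log2 difference was -1.26 ± 0.13 (limma adjusted p = 1.62e-06). Without the 3 spleen A libraries the differences over the gates were -3.04 for Fos, -2.30 for Jun, -3.32 for Dusp1, -1.24 for Zfp36 and -1.34 for Socs3, and each stayed called (limma adjusted p at most 9.94e-05).

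**Figure D1:**
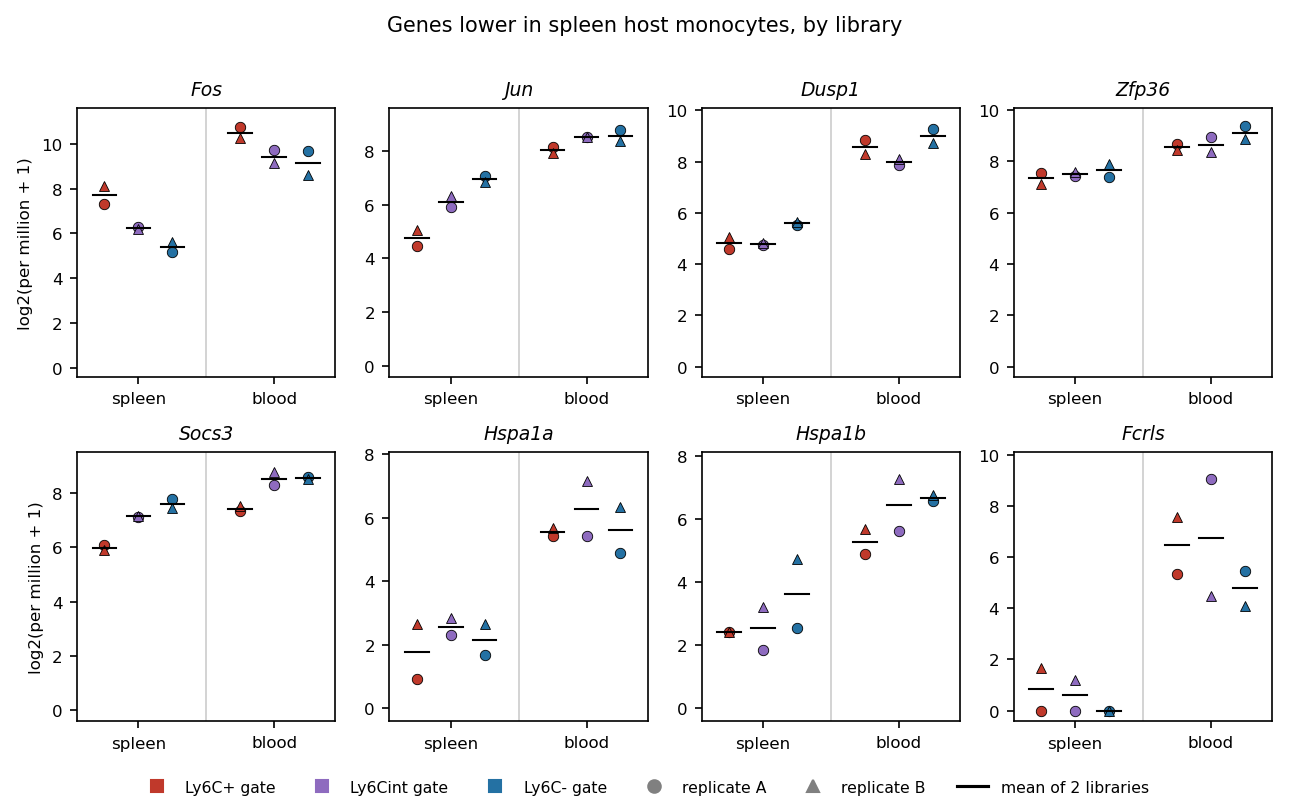
Levels of 8 genes lower in spleen host monocytes, as log2(ppm + 1) on the vertical axis, with spleen libraries on the left and blood libraries on the right of each panel. Each point is 1 library, coloured by sort gate, and in every gate the 2 spleen points of Fos, Jun, Dusp1, Zfp36 and Socs3 lie below the 2 blood points, with log2 differences over the gates of -3.44 for Dusp1 to -1.26 for Socs3.

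The sequence just upstream of the start of Fos and Dusp1 is shown because these genes had the lowest adjusted p values and both carry the core of the cAMP response element, TGACGT, in that window. The sequences are from RefSeq (GRCm38.p6, while the expression table was made on mm9), read 5′ to 3′ on the strand of the gene, 150 bases long and ending at the base before the start. Capitals mark TGACGT on either strand. In Dusp1 the 2 strands' matches overlap and form a palindrome.
Fos (chr12:85473740-85473889, plus strand): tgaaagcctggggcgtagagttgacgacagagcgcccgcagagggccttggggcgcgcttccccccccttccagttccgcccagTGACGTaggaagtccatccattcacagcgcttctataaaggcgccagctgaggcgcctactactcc
Dusp1 (chr17:26508473-26508622, minus strand): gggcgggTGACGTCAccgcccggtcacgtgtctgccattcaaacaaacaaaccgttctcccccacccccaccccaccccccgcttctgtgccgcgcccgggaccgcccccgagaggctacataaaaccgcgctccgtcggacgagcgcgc
The match began at position -66 from the start of Fos and at -143 from that of Dusp1. Over 250 bases upstream, both strands searched, TGACGT stood in 7 of the 20 immediate early genes that have a window (35%), against 1971 of 27025 genes (7.29%). Of these 7, Fos, Dusp1 and Btg2 were called lower in spleen over the gates, and Atf3, Egr2, Maff and Nr4a3 were not. A match in these letters is a description of the sequence only.

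Of 22 immediate early genes tested, 12 fell and 0 rose over the gates, against 1.18% of all genes called lower, with a median log2 difference of -0.61, against 0.07 for all genes. Beside those above, the called genes were Junb, Jund, Fosb, Egr1, Ier2, Btg2, Dusp2 and Klf6. Junb, another AP-1 subunit, had 461 to 631 ppm in spleen and 881 to 1217 in blood (log2 difference -0.91 ± 0.11, limma adjusted p = 1.78e-05). Jund had 39.0 to 72.3 in spleen and 89.0 to 129 in blood, and Ier2, an immediate early nuclear protein, 249 to 449 in spleen and 438 to 844 in blood. Jund and Junb did not overlap between the tissues, whereas the highest spleen library of Ier2 passed the lowest blood library. Fosb was near its detection limit in spleen at 0 to 2.19 ppm, against 1.31 to 55.2 in blood (-2.97 ± 0.52, adjusted p = 0.00174). By gate, 4, 7 and 6 members were called lower in the Ly6C+, Ly6Cint and Ly6C- gates, with medians of -0.68, -0.88 and -0.84. Nr4a1, an orphan nuclear receptor that Ly6C- monocytes need and which is also an immediate early gene, was not called, with 476 to 1615 ppm in spleen and 488 to 2047 in blood (-0.43 ± 0.13, adjusted p = 0.078). The list summed to 2970 to 4426 ppm in spleen libraries and 5854 to 9084 in blood libraries. After removal of the spleen A libraries 10 of 21 members stayed called.

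Of the heat shock genes, the lowest in spleen relative to blood were Hspa1a and Hspa1b, which encode the inducible chaperone Hsp70. Hspa1a had 0.876 and 5.26 ppm in the Ly6C+ gate, 3.94 and 6.14 in the Ly6Cint gate and 2.19 and 5.26 in the Ly6C- gate in spleen, against 42.1 and 50.4 ppm in the Ly6C+ gate, 41.6 and 142 in the Ly6Cint gate and 28.5 and 80.2 in the Ly6C- gate in blood. Every spleen library lay below the lowest blood library, and the log2 difference was -3.65 ± 0.37 (limma adjusted p = 1.62e-06), or -3.11 without the 3 spleen A libraries (adjusted p = 3.07e-05). Hspa1b ranged over 2.63 to 25.4 ppm in spleen and 28.5 to 151 in blood, a difference of -3.25 ± 0.36 (adjusted p = 4.39e-06). Both genes are close copies, with 247 of 250 bases identical upstream of their starts, so the division of reads between them is uncertain. In all, 4 of 13 heat shock genes fell over the gates and 0 rose, against 1.18% and 2.29% of all genes. The others were Hsph1 and Dnajb1, whose calls were kept in only 5 and 1 of 12 fits leaving out 1 library. Both calls were lost without spleen Ly6Cint A, among other libraries. Of the 13 genes, 2 stayed called without the spleen A libraries. The median of the list was -0.56. In the Ly6C- gate 1 member, the mitochondrial chaperonin gene Hspe1, was called higher (1.48, limma adjusted p = 0.0196).

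The promoter of Hspa1a is shown for comparison with those of Fos and Dusp1, with GAANNTTC, a pair of heat shock units facing each other, and the Y box CTGATTGG in capitals.
Hspa1a (chr17:34972157-34972306, minus strand): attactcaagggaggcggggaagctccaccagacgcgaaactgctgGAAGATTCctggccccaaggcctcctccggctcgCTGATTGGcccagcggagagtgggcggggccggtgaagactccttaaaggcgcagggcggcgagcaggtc
GAANNTTC began at position -104 and CTGATTGG at -70. Over 250 bases upstream, on both strands, GAANNTTC stood in 6 of 11 heat shock genes with a window (54.5%), against 7.73% of all genes, and TGACGT in 2 of the 11 (18.2%).

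Fcrls, an Fc receptor-like scavenger receptor known in the mouse from microglia, was nearly absent from spleen monocytes. It had 0 and 2.19 ppm in the Ly6C+ gate, 0 and 1.31 in the Ly6Cint gate and 0 and 0 in the Ly6C- gate in spleen, against 39.4 and 188 ppm in the Ly6C+ gate, 529 and 21.0 in the Ly6Cint gate and 43.4 and 16.2 in the Ly6C- gate in blood. The blood libraries themselves spanned a wide range, with the highest value in Ly6Cint A. Pooled over libraries, 3 reads in spleen stood against 529 in blood, a ratio of 187 (exact 95% interval 63.5 to 908, which covers counting error only), and the fitted log2 difference was -5.52 ± 0.59 (limma adjusted p = 2.65e-06).

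Several transcription factors of monocytes were lower in spleen. Klf2, which restrains inflammatory activation of monocytes, had 604 to 699 ppm in spleen and 722 to 1492 in blood, without overlap (-0.75 ± 0.13, limma adjusted p = 0.00118). Klf6, a related zinc finger factor, differed by -0.55 ± 0.10 (adjusted p = 0.00241). Cebpb, needed for the survival of Ly6C- monocytes, had 925 and 905 ppm in the Ly6C+ gate, 939 and 1188 in the Ly6Cint gate and 1573 and 1516 in the Ly6C- gate in spleen, against 928 and 1403 ppm in the Ly6C+ gate, 2234 and 2646 in the Ly6Cint gate and 2589.9 and 2954 in the Ly6C- gate in blood. Its tissues were close in the Ly6C+ gate, where the difference of -0.32 was not called (adjusted p = 0.896), and apart in the Ly6Cint gate (-1.20, adjusted p = 0.0147), while the test between gates gave 0.838. In all, 6 of 38 monocyte transcription factors fell, among them Klf2, Klf4, Klf6 and Cebpb, and 2 rose, Spic and Batf3, against 1.18% of all genes called lower and 2.29% called higher. Without the 3 spleen A libraries 4 of the 38 were called lower, among them Klf2 and Cebpb, and 1, Spic, was called higher, while Klf6 was not called (limma adjusted p = 0.077). Klf4, which monocytes need to develop, lost its call without spleen Ly6C+ A or spleen Ly6Cint A. Spi1, the master factor PU.1, and Irf8, which promotes monocyte over granulocyte fate, were not called, at -0.04 ± 0.11 and 0.08 ± 0.13 (adjusted p = 0.903 and 0.801).

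Some of the genes that distinguish the gates differed between tissues as well. Of 17 Ly6C+ monocyte genes, 5 rose in spleen, among them Chil3, F13a1, Fn1 and Ly6c2, and 0 fell, against 2.29% and 1.18% of all genes, with a median of 0.37. Chil3, the chitinase-like protein Ym1, had 3392 and 2569.8 ppm in the Ly6C+ gate, 1066 and 348 in the Ly6Cint gate and 54.3 and 92.0 in the Ly6C- gate in spleen, against 1780.3 and 1025 ppm in the Ly6C+ gate, 352 and 246 in the Ly6Cint gate and 13.6 and 3.94 in the Ly6C- gate in blood. Spleen lay above blood in the Ly6C+ and Ly6C- gates and the ranges touched in the Ly6Cint gate, for a difference of 1.75 ± 0.31 (limma adjusted p = 0.00167). F13a1, the coagulation factor XIII A chain, had differences of 0.08 in the Ly6C+ gate and 2.45 in the Ly6C- gate (adjusted p = 1 and 0.00142), and its test between gates gave 0.353. Ly6c2, the gene of the sorted antigen itself, had 1984 and 1999 ppm in the Ly6C+ gate of spleen and 2129 and 2358 in that of blood. It had 67.5 and 37.3 in the Ly6C- gate of spleen and 18.4 and 16.2 in that of blood (1.49, adjusted p = 0.042). Over the gates Ly6c2 was called at an adjusted p of 0.0468, and that call was lost in 7 of 12 fits leaving out 1 library, spleen Ly6Cint A, Ly6C- A and Ly6C- B among them. Whether the gates were set alike in both tissues is not given in the sources used here, and its part in these differences was not tested.

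Of 24 Ly6C- monocyte genes, 6 fell in spleen (Fcgr4, Lilra5, Cd36, Eno3, Bcl2 and Klf2) and 0 rose, against 1.18% and 2.29% of all genes, with 23 of 24 differences negative and a median of -0.49. The calls of Lilra5, Cd36, Eno3 and Bcl2 were lost without spleen Ly6Cint A, and those of the last 3 without some other libraries as well. Fcgr4, an activating receptor for immunoglobulin G, had 22.8 and 17.1 ppm in the Ly6C+ gate, 141 and 142 in the Ly6Cint gate and 599 and 385 in the Ly6C- gate in spleen, against 36.4 and 50.4 ppm in the Ly6C+ gate, 356 and 221 in the Ly6Cint gate and 765 and 867 in the Ly6C- gate in blood. It climbed from gate to gate in both tissues and was lower in spleen at each (-0.94 ± 0.15, limma adjusted p = 0.000494). Cx3cr1 differed by -0.11 ± 0.10 and was not called (adjusted p = 0.646), and neither was Ccr2, the chemokine receptor by which monocytes leave the marrow (0.60 ± 0.22, adjusted p = 0.151). Without the 3 spleen A libraries the calls of the Ly6C+ genes were lost, and 2 of the Ly6C- genes, Fcgr4 and Klf2, stayed called.

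Among the genes higher in spleen over the gates, Ffar2, a receptor for short-chain fatty acids, had one of the largest differences. It had 3.50 and 5.26 ppm in the Ly6C+ gate, 14.9 and 18.0 in the Ly6Cint gate and 69.7 and 88.1 in the Ly6C- gate in spleen, against 0 and 0 ppm in the Ly6C+ gate, 2.19 and 0 in the Ly6Cint gate and 1.31 and 0 in the Ly6C- gate in blood. All 6 spleen libraries lay above all 6 blood libraries, of which 4 were at 0, and the level grew from the Ly6C+ to the Ly6C- gate of the spleen. Pooled, 161 reads in spleen stood against 2 in blood, a ratio of 76.0 (exact 95% interval 20.7 to 633), and the fitted difference was 3.80 ± 0.50 (limma adjusted p = 7.55e-05). Ly6d, a surface protein of the Ly6 family used as a marker of lymphoid cells, had 14.9 and 9.64 ppm in the Ly6C+ gate, 32.4 and 33.7 in the Ly6Cint gate and 34.6 and 50.8 in the Ly6C- gate in spleen, against 0 and 1.31 ppm in the Ly6C+ gate, 7.89 and 1.75 in the Ly6Cint gate and 6.14 and 0 in the Ly6C- gate in blood (3.30 ± 0.46, adjusted p = 0.000178). Here too the tissues did not overlap. Genes whose 6 spleen libraries all lay above the 6 blood libraries numbered 63 (0.551% of genes tested), and 36 lay wholly below (0.315%), together 0.866%. Of these, 51 were also called higher (0.446%) and 29 called lower (0.254%).

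Ccl5, a chemokine for T cells and monocytes, had 25.4 and 55.2 ppm in the Ly6C+ gate, 78.4 and 112 in the Ly6Cint gate and 40.8 and 57.4 in the Ly6C- gate in spleen, against 18.0 and 25.4 ppm in the Ly6C+ gate, 25.9 and 22.8 in the Ly6Cint gate and 7.45 and 7.89 in the Ly6C- gate in blood. Only spleen Ly6C+ A lay within the blood range, the spleen values were highest in the Ly6Cint gate, and the difference was 1.73 ± 0.27 (limma adjusted p = 0.000494). Of 13 chemokine genes tested, 3 rose (Ccl5, Cxcl9 and Cxcl10) and 1, Ccl2, fell, against 2.29% and 1.18% of all genes, and the calls of Cxcl9 and Ccl2 were lost without spleen Ly6Cint A among other libraries. Cxcl10, an interferon-induced chemokine, had 95.9 and 102 ppm in the Ly6C+ gate of spleen and 90.7 and 53.0 in that of blood, and 57.0 and 29.8 in the Ly6Cint gate of spleen and 14.0 and 0.876 in that of blood. Its call over the gates (1.97 ± 0.48, adjusted p = 0.0209) was lost without spleen Ly6Cint A, spleen Ly6C- B or blood Ly6C- A. Without the 3 spleen A libraries Ccl5 alone of the chemokine genes stayed called. Of 35 interferon response genes 1 was called, Stat2, which rose, a share near the 2.29% of all genes called higher.

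Rps19, a protein of the small ribosomal subunit, had 124 to 180.1 ppm in spleen and 62.7 to 89.4 in blood, without overlap and with near equal differences in the Ly6C+, Ly6Cint and Ly6C- gates of 0.95, 1.03 and 0.84 (over the gates 0.94 ± 0.13, limma adjusted p = 0.000197). Of 68 ribosomal protein genes, 13 rose and 1, Rps4x, fell, against 2.29% and 1.18% of all genes, and the median was 0.30. Rps21 also did not overlap, at 1380.4 to 1964 in spleen and 792 to 1284 in blood. Ribosomal protein genes have many processed copies in the genome, so the placing of their reads is uncertain. Other genes higher in spleen without overlap were Sesn1, Tnip3 and Icosl. Sesn1, a stress-induced regulator of growth signalling, differed by 1.07 ± 0.20 (adjusted p = 0.00314), and Tnip3, an inhibitor of NF-kappaB signalling, by 1.84 ± 0.37 (adjusted p = 0.00509). Icosl, the ligand of the T cell co-receptor ICOS, differed by 1.46 ± 0.33 (adjusted p = 0.015), and its call was lost without spleen Ly6Cint A. When the spleen A libraries were left out, Ffar2, Ly6d, Ccl5, Rps19 and Rps21 stayed called, at 3.98, 3.30, 2.08, 1.03 and 0.69, and Tnip3 and Icosl did not (adjusted p = 0.116 and 0.22).

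**Figure D2:**
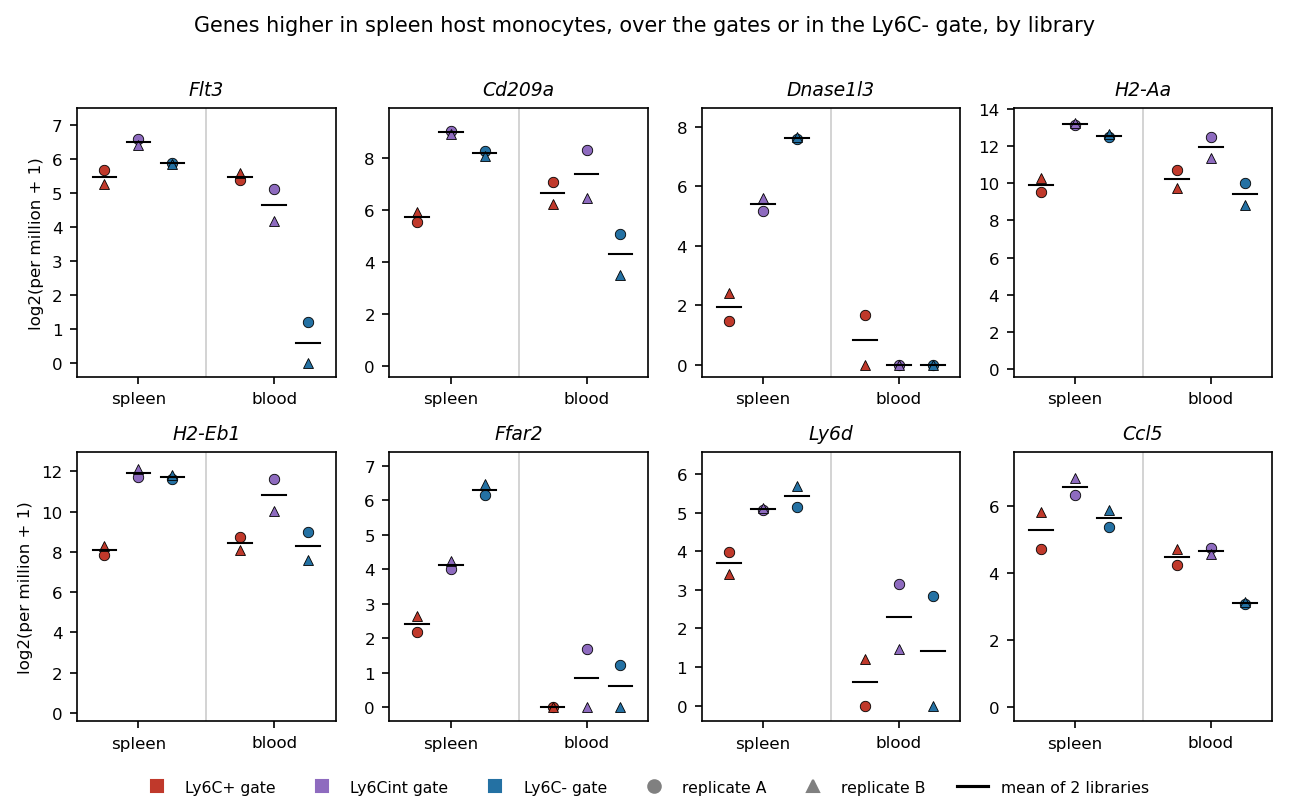
Levels of 8 genes higher in spleen host monocytes over the gates or in the Ly6C- gate, as log2(ppm + 1) on the vertical axis, with spleen libraries on the left and blood libraries on the right of each panel. Each point is 1 library, coloured by sort gate. Ffar2 and Ly6d lie above all blood libraries in every gate, while Flt3, H2-Aa and H2-Eb1 overlap between tissues in the Ly6C+ gate and separate in the Ly6C- gate.

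A difference between the gates themselves, tested with an F test on the tissue-by-gate terms, was called for 10 genes (0.0875%). Set against the mean of the other gates, the Ly6C- gate stood apart for 8 genes (0.07%), all with a larger difference in spleen: Flt3, Slamf7, Cd209a, H2-Aa, H2-Eb1, Ccnd1, Klrk1 and Amica1. For the Ly6C+ gate 8 genes were called (0.07%), all with a lower difference than in the other gates. For the Ly6Cint gate limma called 0 genes, with 711 at an unadjusted p under 0.05. The F test by limma called 0 genes without spleen Ly6C- A, without spleen Ly6C- B or without spleen Ly6C+ A, with 544, 534 and 526 genes then at an unadjusted p under 0.05. It called 1 to 3 without spleen Ly6C+ B, spleen Ly6Cint A or B, blood Ly6C+ A or blood Ly6C- B, and 19 and 16 without blood Ly6Cint A and B.

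Flt3, the receptor tyrosine kinase through which dendritic cells and their precursors grow, had 50.4 and 37.7 ppm in the Ly6C+ gate, 94.7 and 84.1 in the Ly6Cint gate and 57.8 and 57.4 in the Ly6C- gate in spleen, against 40.8 and 46.9 ppm in the Ly6C+ gate, 33.7 and 17.1 in the Ly6Cint gate and 1.31 and 0 in the Ly6C- gate in blood. The tissues overlapped in the Ly6C+ gate, and in the Ly6C- gate 93 pooled reads in spleen stood against 1 in blood, a ratio of 89.8 (exact 95% interval 15.7 to 3590). Its log2 difference in that gate was 5.27 ± 0.44 (limma adjusted p = 1.13e-06) and exceeded the mean of the other gates by 4.35 (adjusted p = 0.00187). Cd209a, a C-type lectin related to DC-SIGN, had 45.6 and 60.5 ppm in the Ly6C+ gate, 530.3 and 487 in the Ly6Cint gate and 308 and 273 in the Ly6C- gate in spleen, against 135 and 74.5 ppm in the Ly6C+ gate, 312 and 88.1 in the Ly6Cint gate and 33.3 and 10.5 in the Ly6C- gate in blood. It was lower in spleen than in blood in the Ly6C+ gate, where the difference of -0.92 was not called (adjusted p = 0.842), and higher in the Ly6C- gate by 3.87 ± 0.47 (adjusted p = 0.00013). Over the gates Flt3 was called (2.37 ± 0.51, adjusted p = 0.00966), though not without the 3 spleen A libraries (adjusted p = 0.0921), and Cd209a missed the threshold (1.52 ± 0.47, adjusted p = 0.077).

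Dnase1l3, a secreted DNase of dendritic cells and macrophages, had 1.75 and 4.38 ppm in the Ly6C+ gate, 35.1 and 48.2 in the Ly6Cint gate and 192 and 200.3 in the Ly6C- gate in spleen, against 2.19 and 0 ppm in the Ly6C+ gate, 0 and 0 in the Ly6Cint gate and 0 and 0 in the Ly6C- gate in blood. Blood libraries outside Ly6C+ A were at 0. Against a floor of 3 pooled reads, spleen was at least 23.6-fold higher in the Ly6Cint gate and at least 102-fold higher in the Ly6C- gate, and the difference between gates had an adjusted p of 0.0261. Klrk1, the activating receptor NKG2D, had 26.7 and 73.6 ppm in the Ly6C- gate of spleen and 3.51 and 0 in that of blood (4.42 ± 0.58, limma adjusted p = 0.000341). Slamf7, a receptor of the SLAM family, and Ccnd1, or cyclin D1, were singled out after their values were seen. Slamf7 had 87.2 and 96.0 in the Ly6C- gate of spleen and 10.96 and 9.20 in that of blood (3.07 ± 0.31), and Ccnd1 had 62.7 and 85.5 in spleen and 10.96 and 9.20 in blood (2.75 ± 0.42). In fits leaving out 1 library, the Ly6C- gate call was kept in 12 of 12 for Flt3, Cd209a, H2-Aa, H2-Eb1, Klrk1, Slamf7 and Amica1, a junctional adhesion molecule-like protein, and Ccnd1 lost it without spleen Ly6C- B. All of these calls were lost without the 3 spleen A libraries, when 1 spleen library per gate remained.

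**Figure D3:**
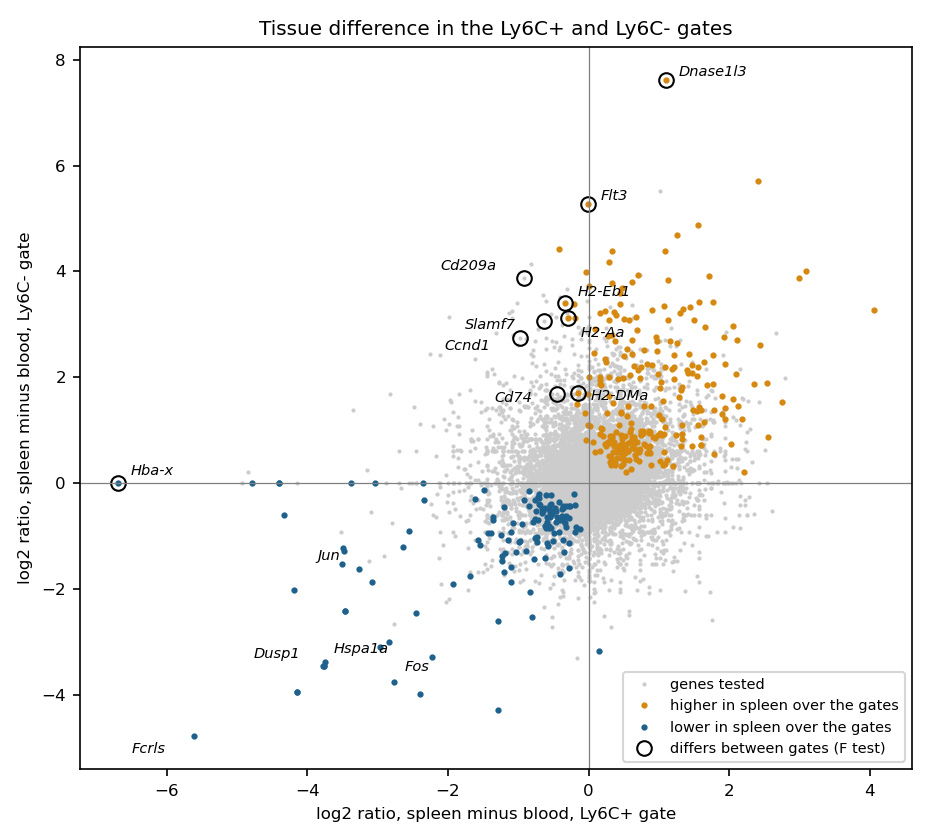
Log2 difference of each tested gene, spleen minus blood, in the Ly6C+ gate (horizontal axis) and in the Ly6C- gate (vertical axis). Named points at the lower left, such as Fos and Dusp1, are lower in spleen in both gates, while Flt3, Cd209a, H2-Aa and H2-Eb1 lie at or below 0 in the Ly6C+ gate, down to -0.92 for Cd209a, and between 3.12 and 5.27 in the Ly6C- gate.

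MHC class II genes, which present extracellular antigen to helper T cells, stood out among the gate differences: H2-Aa, H2-Eb1, H2-DMa and Cd74 were 4 of the 10 genes called by the F test. H2-Aa, a class II alpha chain, had 747 and 1252 ppm in the Ly6C+ gate, 8903 and 9551 in the Ly6Cint gate and 5647 and 6259 in the Ly6C- gate in spleen, against 1645 and 845 ppm in the Ly6C+ gate, 5742 and 2649 in the Ly6Cint gate and 1023 and 456 in the Ly6C- gate in blood. The Ly6C+ gates overlapped, and in the Ly6C- gate the difference was 3.12 ± 0.37 (limma adjusted p = 0.00013). H2-Eb1, a class II beta chain, had 233 and 315 ppm in the Ly6C+ gate, 3335 and 4533 in the Ly6Cint gate and 3112 and 3593 in the Ly6C- gate in spleen, against 429 and 274 ppm in the Ly6C+ gate, 3151 and 1046 in the Ly6Cint gate and 508 and 193 in the Ly6C- gate in blood. In the Ly6C- gate it differed by 3.41 ± 0.41 (adjusted p = 0.00013). Cd74, the invariant chain that guides class II molecules to the endosome, had 7449.8 and 6805 in the Ly6C- gate of spleen and 2382 and 2043 in that of blood, and 1447 and 1978 in the Ly6C+ gate of spleen and 2787 and 1923 in that of blood. H2-DMa, which loads peptides onto class II molecules, was higher in the Ly6Cint and Ly6C- gates by 1.22 and 1.70. Ciita, the transactivator of the class II genes, had 81.0 and 171 ppm in the Ly6C+ gate, 351 and 341 in the Ly6Cint gate and 356 and 295 in the Ly6C- gate in spleen, against 146 and 35.1 ppm in the Ly6C+ gate, 258 and 84.6 in the Ly6Cint gate and 43.4 and 9.20 in the Ly6C- gate in blood. Its difference over the gates of 1.95 ± 0.43 was called (adjusted p = 0.0115), was lost without spleen Ly6C- B, and had a test between gates of 0.464.

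Of 15 class II and co-stimulation genes tested, 6 rose over the gates (H2-Aa, H2-Eb1, H2-DMa, H2-Oa, Ciita and Cd40) and 0 fell, against 2.29% and 1.18% of all genes. Over the gates the calls of H2-Aa and H2-Eb1 were lost in 7 of 12 fits, without any 1 of the Ly6Cint or Ly6C- libraries other than blood Ly6Cint A. In the Ly6C- gate 10 were higher (against 0.813% of all genes), in the Ly6Cint gate 2 were higher, and in the Ly6C+ gate 1, Cd83, a marker of dendritic cell activation, was lower (-2.67, limma adjusted p = 0.0343). The medians of the list were -0.25 in Ly6C+, 1.16 in Ly6Cint and 1.70 in Ly6C- cells. Over the gates 3 members stayed called without the 3 spleen A libraries: H2-Aa (adjusted p = 0.049), H2-Oa (0.0194) and Ciita (0.0341). In the same libraries the conventional dendritic cell markers were looked at, a list of 18 genes that holds Flt3, Cd209a and Kmo. Flt3 and Cd209a were themselves called by the F test, so the list is not independent of the gate differences above. In Ly6C+, Ly6Cint and Ly6C- cells the markers, where tested, had median differences of 0.02, 1.03 and 1.00. They summed to 724.1 and 790.3 ppm in the Ly6C+ gate of spleen, against 767.7 and 714 in that of blood, to 1326 and 1171 in the Ly6Cint gate of spleen, against 736 and 512 in that of blood, and to 799 and 811 in the Ly6C- gate of spleen, against 319 and 328 in that of blood. B cells carry class II as well, and the B cell markers summed to 126 and 121.8 in the Ly6C+ gate of spleen, against 111 and 85.0 in that of blood, and to 404 and 556.6 in the Ly6C- gate of spleen, against 145.1 and 112 in that of blood. Both marker sums overlapped or lay close between tissues in the Ly6C+ gate and lay apart in the Ly6C- gate, and the part of either cell type in the class II differences was not tested. Of the genes that define dendritic cells, Clec9a, a receptor for dead cells, rose over the gates, with 1.75 to 32.4 in spleen and 0 to 6.13 in blood. Zbtb46 had 0 to 9.64 in spleen and 0 to 6.13 in blood and was not called, and Xcr1 had 0 to 2.63 in spleen and was listed at 0 in all 6 blood libraries.

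The promoters of H2-Aa and H2-Eb1 are shown because their differences were among the largest of the class II genes in the Ly6C- gate. Capitals mark TGACGT on either strand, GAANNTTC and the Y box CTGATTGG, a binding site of the factor NF-Y in class II promoters.
H2-Aa (chr17:34287824-34287973, minus strand): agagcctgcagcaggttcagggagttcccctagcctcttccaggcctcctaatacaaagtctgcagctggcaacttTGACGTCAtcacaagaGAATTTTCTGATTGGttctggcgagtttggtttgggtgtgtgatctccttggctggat
H2-Eb1 (chr17:34305717-34305866, plus strand): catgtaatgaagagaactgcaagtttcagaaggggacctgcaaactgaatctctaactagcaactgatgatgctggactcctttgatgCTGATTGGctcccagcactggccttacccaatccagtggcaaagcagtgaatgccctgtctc
The Y box began at position -51 from the start of H2-Aa, where it overlaps the match of GAANNTTC at -58, and at -62 from that of H2-Eb1. Over 250 bases upstream, both strands searched, CTGATTGG stood in 4 of 10 genes of the class II list with a window (40.0%). Among all genes it stood in 1198 of 27025 (4.43%). CTGATTGG was not particular to the class II list, as it stood in 3 of 11 heat shock genes (27.3%) and in 2 of 20 immediate early genes. GAANNTTC stood in 3 of the 10 class II genes (30.0%), against 7.73% of all genes.

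The genes that rose in the Ly6Cint gate included Dnase1l3, given above. Hebp1, a haem-binding protein, had 21.5 and 8.33 ppm in spleen and 0 and 0 in blood (limma adjusted p = 0.0204). Slc40a1, the iron exporter ferroportin, had 50.0 and 13.1 in spleen and 2.19 and 0.876 in blood (3.46, adjusted p = 0.0491). Kmo, an enzyme of tryptophan breakdown, had 114 and 92.5 in spleen and 32.0 and 2.63 in blood (3.24, adjusted p = 0.0393). Kmo also rose in the Ly6C- gate, by 4.38. The genes lower in spleen in this gate were led by Fcrls and Stab1, a scavenger receptor, at 0 and 0 in spleen and 23.7 and 16.2 in blood. In the Ly6C+ gate, the genes lower in spleen included C1qb and C1qc, chains of complement C1q. C1qb was at 21.9 and 10.96 in spleen and 234 and 146 in blood (-3.49, adjusted p = 0.0123). Gas6, a ligand that bridges receptors to dying cells, was at 0 and 0.877 in spleen and 46.4 and 16.7 in blood (-4.40, adjusted p = 0.0203).

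Markers of other cells moved with tissue, and their part in the gene differences was not tested. Of 14 B cell markers tested 7 rose in spleen and 0 fell, against 2.29% and 1.18% of all genes (as for each count in the next lists), with a median of 1.75, and their summed level was 121.8 to 556.6 ppm in spleen and 73.17 to 145.1 in blood. Cr2, the complement receptor CD21 of B cells, had 5.26 and 2.19 ppm in the Ly6C+ gate, 9.64 and 18.0 in the Ly6Cint gate and 37.2 and 50.8 in the Ly6C- gate in spleen, against 0 and 1.31 ppm in the Ly6C+ gate, 2.19 and 0 in the Ly6Cint gate and 1.31 and 0 in the Ly6C- gate in blood (pooled ratio 31.5, exact 95% interval 10.5 to 155). The B cell factor Pax5 was listed at 0 in all 12 libraries. Such a 0 does not show that a gene was silent, because the table also lists Hmgcs1, a gene of cholesterol synthesis, at 0 in all 12, and the glycolytic gene Gapdh at 0 to 3.51 in spleen and 0 to 2.19 in blood. Of 19 T and NK cell markers 7 rose and 0 fell, with a median of 1.495 and a sum of 70.55 to 181.4 in spleen and 10.52 to 39.87 in blood. Of their defining genes, Cd3e, a chain of the T cell receptor complex, had 0 to 7.01 in spleen and 0 to 0.876 in blood, or 13 pooled reads against 1 (ratio 12.3, exact 95% interval 1.84 to 522). Cd3d, another chain, had 17 against 1 (ratio 16.1, 2.52 to 671), and its rise was called (limma adjusted p = 0.042) while that of Cd3e was not (adjusted p = 0.117). Of the list, 8 of the 24 listed markers were under 5 ppm in all 12 libraries. Cd8a had 1.31 to 8.33 in spleen and 0 to 1.31 in blood. Of 16 conventional dendritic cell markers 5 rose (Flt3, Kmo, Clec9a, Ccr7 and Tbc1d4) and 0 fell, the calls of Clec9a and Ccr7 being lost without spleen Ly6Cint A or spleen Ly6C- A. Without the 3 spleen A libraries 2 B cell, 1 T and NK cell and 1 dendritic cell marker stayed called.

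Of 15 splenic macrophage markers 5 rose, Spic, Vcam1, Slc40a1, Cd163 and Cd5l, and 2 fell, C1qb and C1qc, while the sums overlapped, at 389 to 1509 ppm in spleen (median 887.8) and 1041 to 1688 in blood (median 1165). Spic, the transcription factor of red pulp macrophages, had 20.2 and 23.7 ppm in the Ly6C+ gate, 64.9 and 73.2 in the Ly6Cint gate and 14.9 and 30.7 in the Ly6C- gate in spleen, against 6.57 and 2.19 ppm in the Ly6C+ gate, 18.0 and 18.0 in the Ly6Cint gate and 21.0 and 16.2 in the Ly6C- gate in blood (1.43 ± 0.33, limma adjusted p = 0.0156), a call that was lost without spleen Ly6Cint A. Vcam1, an adhesion molecule, had 4.38 to 24.5 in spleen and 0 to 4.38 in blood, and Vsig4, a macrophage complement receptor, was listed at 0 in all 12. The erythroid list went the other way, with 8 of 11 members lower in spleen and a sum of 115.7 to 1382 in spleen and 4445 to 10930 in blood. Hba-a1, an adult alpha globin, had 365 and 44.3 ppm in the Ly6C+ gate, 398 and 58.7 in the Ly6Cint gate and 443 and 69.2 in the Ly6C- gate in spleen, against 2946 and 1745 ppm in the Ly6C+ gate, 4304 and 1774 in the Ly6Cint gate and 4555 and 1631 in the Ly6C- gate in blood. The 3 spleen A libraries held more of it than the 3 spleen B libraries, and both less than any blood library. Hba-a1 and Hba-a2 are near-identical copies, whose reads cannot be divided with certainty. Neutrophil markers gave 0 calls of 9 by limma (1 at an unadjusted p under 0.05), with sums of 180.1 to 458.7 in spleen and 170.9 to 287.9 in blood.

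**Figure D4:**
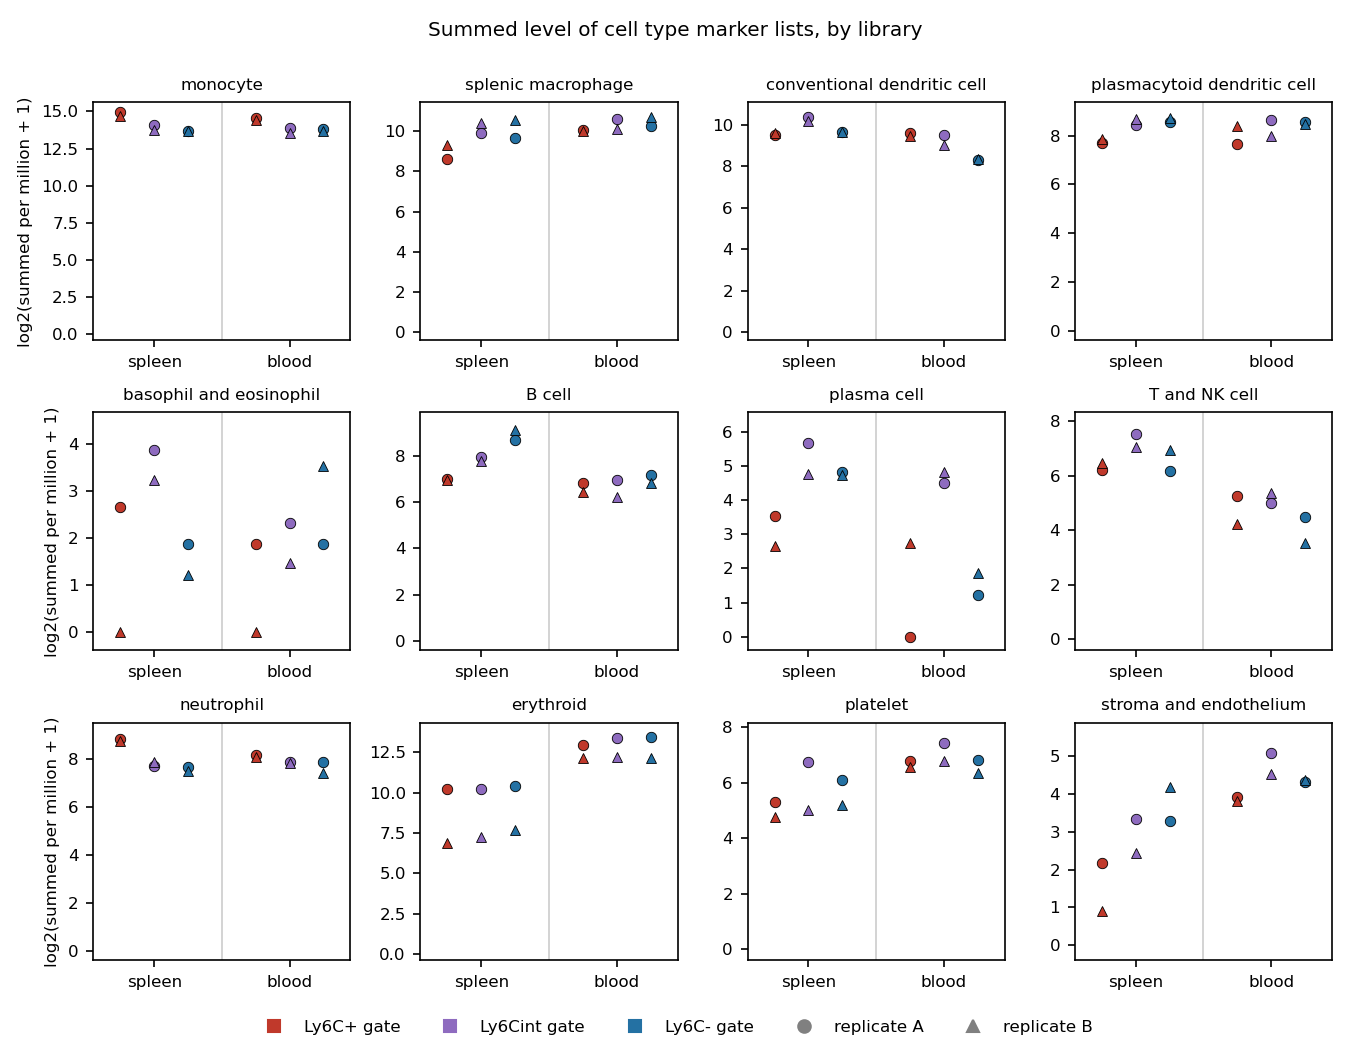
Summed level of the marker genes of each cell type in each host library, as log2(sum ppm + 1) on the vertical axis, with spleen libraries on the left and blood libraries on the right of each panel. Points are libraries coloured by gate. T and NK cell sums lie at 70.55 to 181.4 in spleen and 10.52 to 39.87 in blood, erythroid sums at 115.7 to 1382 in spleen and 4445 to 10930 in blood, and monocyte sums overlap at 12920 to 31050 in spleen and 11760 to 23700 in blood.

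Further lists moved little or in a few members, against 2.29% of all genes called higher and 1.18% called lower. Of 18 circadian and glucocorticoid genes 2 fell. They were Sgk1, a glucocorticoid-induced kinase, with 35.05 to 81.5 ppm in spleen and 72.3 to 197 in blood (-1.08 ± 0.16, limma adjusted p = 0.000273), and Tsc22d3, or GILZ, with 123 to 200.3 in spleen and 182 to 533 in blood. Of 29 adhesion and chemotaxis receptors 4 rose, among them Ccr7, Gpr183 and S1pr1, and 1 fell, Cxcr4. The calls of Ccr7 and Gpr183 were lost in 9 and 8 of 12 fits leaving out 1 library. Of 22 scavenger and dying-cell uptake genes 4 fell (Cd36, Gas6, Stab1 and Trem2), each call being lost without at least 1 spleen library. Of 13 complement genes Cfp rose, a call lost without any 1 of the spleen A libraries, and C1qb and C1qc fell. Of 22 iron and haem genes Hebp1 and Slc40a1 rose, the call of Slc40a1 being lost in 6 of 12 fits. Cytokine receptor and feedback genes gave 1 rise, Csf2rb2, a beta chain of the interleukin-3 receptor, and 2 falls, Socs3 and Dusp6. Of 17 NF-kappaB inflammatory genes Tnfaip2 rose and Tnf, tumour necrosis factor, fell, the call of Tnf being lost without spleen Ly6Cint A, spleen Ly6C- A, blood Ly6C+ B or blood Ly6C- A. Of 22 cholesterol genes Apoe, a lipid carrier, and Abca1, a cholesterol exporter, fell, both calls being lost without spleen Ly6Cint A or spleen Ly6C- A among other libraries. Over the gates, oxidative phosphorylation gave 0 calls of 30 and cell cycle genes 0 of 33 by limma, with 4 members of each list at an unadjusted p under 0.05. In the Ly6Cint gate 1 of the 33 cell cycle genes was called lower, against 0.227% of all genes. Glycolysis gave 1 call of 21, Hk2, which was lost in 6 of 12 fits, and apoptosis regulators 1 of 24, Bcl2, lost in 8 of 12. In the oxidative phosphorylation, cell cycle, glycolysis and apoptosis lists, 0 or 1 call over the gates was too few to compare with all genes. Without the 3 spleen A libraries the calls of the scavenger, iron and cholesterol genes were lost, and 1 adhesion and chemotaxis receptor and 1 circadian and glucocorticoid gene stayed called.

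**Figure D5:**
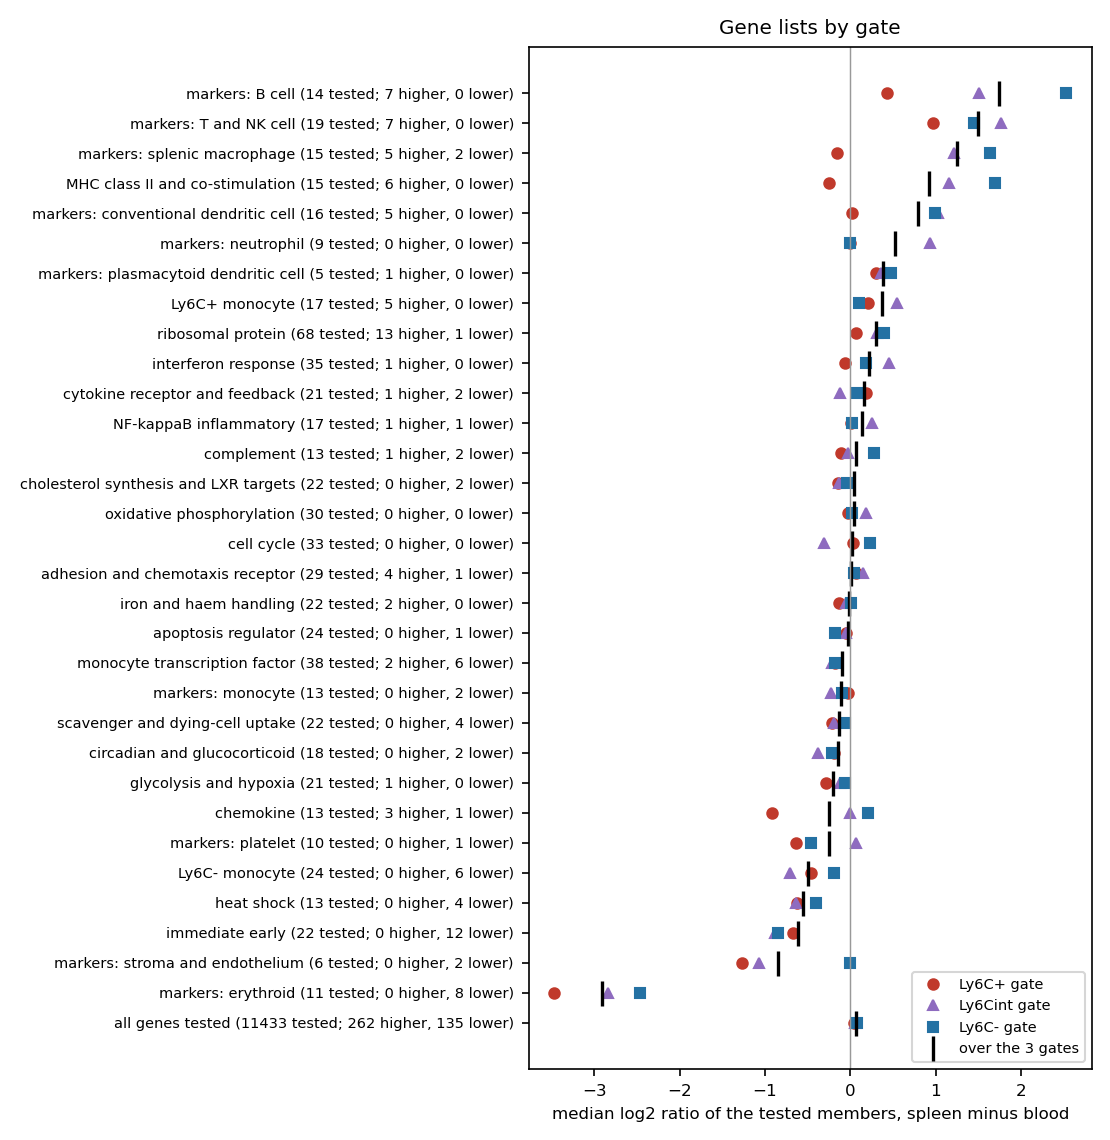
Median log2 difference, spleen minus blood (horizontal axis), of the tested members of each function list and of most cell marker lists, with a row for all genes tested. Each row has 1 point per sort gate and a bar for the gates together. The immediate early list sits at -0.68, -0.88 and -0.84 in the Ly6C+, Ly6Cint and Ly6C- gates, and the class II list at -0.25, 1.16 and 1.70.

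Grafted monocytes give the same contrast in other libraries of the table. With time as a block, limma called 16 of 10929 genes between graft spleen and graft blood (0.146%), 3 higher (0.0274%) and 13 lower (0.119%) in spleen. Fos fell by 4.16 on the log2 scale, with 8.76 to 117 ppm in graft spleen and 425 to 999 in graft blood. Jun had 51.3 to 120 in graft spleen and 284 to 617 in graft blood, and Dusp1 had 0 to 158 in graft spleen and 301 to 599 in graft blood. Zfp36, Junb, Ier2, Hspa1b and Sgk1 fell in the grafts too, as did the globin genes Hba-a1, Hba-a2, Hbb-b1 and Hbb-bs. The 3 genes that rose were the T cell marker Cd8b1 (5.53), Fcna (5.26) and Ly6d (4.32). Socs3 and Hspa1a were not among the 16 called genes. The heat shock list had a median of 0.14 in the grafts, against -0.56 in the host, and the immediate early list -0.72, against -0.61. Fcrls had a difference of 1.07 in the grafts and was not called there. Of the 135 genes called lower in host spleen, 129 were tested in the grafts, 94 of them with a negative difference and 12 called. Of the 262 called higher, 254 were tested, 218 with a positive difference and 2 called, against 6518 positive of 10608 genes tested in both. Graft and host libraries share no sample, but whether they share animals is not given in the sources used here, and graft cells were prepared with the same ACK and Ficoll steps.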

How the data were processed

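RNA was captured on oligo-dT beads and sequenced. The submitters' processing notes name bcl2fastq, HISAT 0.1.5, SAMtools, HOMER and the build mm9, and the counting options and annotation are not given in the sources used here. The authors deposited 1 score per gene and library for 24421 genes: values scaled to a common total (2281518 to 2282712 in host libraries) and rounded, so they are not counts. Between 99.39% and 100.0% of the values up to 150 in a host library fell on rounded multiples of 1 step, taken as 1 read. Inferred reads served for depth, pooled ratios with exact 95% intervals, floors of 3 reads and 1 alternative, and both intervals and floors cover counting error only.

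Here values were expressed ppm, genes with at least 2 ppm in at least 2 host libraries were kept, and log2(value + 1) was fitted with limma 3.58.1 (R 4.3.3, mean-variance trend), with gate and tissue as terms, or with 1 mean per tissue and gate for the gate and F tests. The pseudocount of 1 makes fold changes of low genes too small. The threshold was a Benjamini-Hochberg adjusted p of 0.05 over all genes tested. The fit over the gates was checked on simulated reads of independent libraries without letter, sex or gate effects. That check does not cover shared animals, the gate tests or genes of low level.

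Named genes were, in each direction, up to 15 called genes without overlap and at least 20 ppm, up to 5 per gate, up to 4 called members of each of 33 gene lists (21 of function, 12 of cell markers) and 12 fixed monocyte genes. The members and lists were chosen with earlier results of these data known. The B-minus-A deviations of same-gate libraries correlated at 0.000659 to 0.0538 between spleen and blood over 6468 genes. Between different gates of the 2 tissues they reached 0.138. Within a tissue they correlated at 0.113 to 0.2 in spleen and 0.00815 to 0.151 in blood. Such correlations do not tell whether matching letters share animals across tissues. For letter A, the sex-linked transcripts differed between spleen and blood, so these libraries came from different animals. Alternatives were other scalings, pseudocounts, filters, weights, a replicate block, left-out libraries and, chosen after seeing the data, voom on inferred reads, other units of replication and leaving out the 3 spleen A libraries. Some genes are not reported here.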

Additional observations from a re-analysis of the deposited data

Results flagged for a closer look

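For 10 genes the difference between spleen and blood host monocytes was not the same in the 3 gates by limma's F test over the tissue-by-gate terms. The adjusted p was 0.00205 for Flt3, with log2 differences of -0.00 in Ly6C+, 1.85 in Ly6Cint and 5.27 in Ly6C- cells. It was also 0.00205 for Slamf7 (-0.64, 1.22 and 3.07 in the same order of gates), and 0.0118 for Cd209a (-0.92, 1.61 and 3.87). Dnase1l3 (1.11, 5.40 and 7.62), H2-Aa (-0.29, 1.24 and 3.12) and H2-Eb1 (-0.34, 1.10 and 3.41) each had an adjusted p of 0.0261. Ccnd1 had 0.0292 (-0.98, 0.47 and 2.75), H2-DMa 0.0312 (-0.15, 1.22 and 1.70) and Cd74 0.0412 (-0.45, 1.10 and 1.69). The values of Dnase1l3 depend on the pseudocount where blood was at 0. In these 9 genes the difference grew from the Ly6C+ to the Ly6C- gate.

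The tenth gene was Hba-x, an embryonic zeta-type globin, with an adjusted p of 0.0261. It was at 0 in all 6 spleen libraries, against 154 and 67.5 ppm in the Ly6C+ gate, 6.13 and 1.75 in the Ly6Cint gate and 0 and 0 in the Ly6C- gate in blood. Against a floor of 3 pooled reads, spleen was at least 76.9-fold lower than blood in the Ly6C+ gate, and both tissues were at 0 in the Ly6C- gate.

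In fits leaving out 1 library the F test call was kept in 9 of 12 for Slamf7, in 8 for Flt3, in 4 for Cd209a, Dnase1l3, H2-Aa and H2-Eb1, in 3 for Cd74 and in 2 for Ccnd1, H2-DMa and Hba-x. Flt3 lost it without spleen Ly6C+ A or B or spleen Ly6C- A or B, and Slamf7 without spleen Ly6C+ A or spleen Ly6C- A or B. The others lost it without any 1 of the 6 spleen libraries.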

How the results depend on the processing

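No gene changed sign between the reported fit and an alternative where limma called it in either. Of 3608 values of single genes under alternatives, 2873 stayed on their side of the threshold, 702 lost the call and 33 gained it. Genes that were not called did change sign, among them Irf8 (-0.10 to 0.14), Spi1 (-0.14 to 0.05) and Ccnd1 (-0.26 to 1.61). The genes called over the gates in all 29 alternatives were 19, among them Ccl5, Dusp1, Fcgr4, Fcrls, Ffar2, Fos, Hba-a1, Hba-a2, Hspa1a, Hspa1b, Jun, Ly6d, Rhob, Rps19, Rps21, Sgk1, Socs3 and Zfp36. Among the 109 called genes looked at, 62 kept their call in all 12 fits leaving out 1 library, and 45 lost it without spleen Ly6Cint A.

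Counts are given in the order over the gates, Ly6C+, Ly6Cint, Ly6C-, all 3 gates and F test where a count moved by over 1.5 times. With all 26 libraries of the table in 1 fit they were 106, 11, 8, 22, 2 and 0 (234 genes at an unadjusted p under 0.05 by the F test), and without a variance trend 89, 10, 39, 45, 1 and 6, with 6 in the grafts. Without a filter the Ly6C+, Ly6Cint, Ly6C-, all-gate and F test counts were 10, 5, 39, 3 and 0 (877 at an unadjusted p under 0.05). With a pseudocount of 0.5 the Ly6C+, Ly6Cint, all-gate and F test counts were 7, 32, 4 and 3. Array weights gave 37 in Ly6C+, 12 in Ly6Cint and 43 in the grafts, quantile scaling 35 in Ly6Cint and voom on inferred reads 143 in Ly6Cint. With 1 mean per tissue and letter 178 genes were called over the gates. Without the 3 spleen A libraries 91 were called over the gates, and 0 in Ly6C+, 0 in Ly6Cint, 0 in Ly6C-, 0 in all gates and 0 by the F test (limma, 484, 743, 729, 42 and 356 at an unadjusted p under 0.05). Over the gates, 112 were called without the Ly6Cint gate and 74 without the Ly6C- gate.

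With the letter as a replicate block the counts were 35 in Ly6C+, 114 in Ly6Cint and 12 in all 3 gates, and 462 over the gates. The A libraries held male transcripts in spleen and female ones in blood, so letter A does not pair animals across tissues. For letter B a pairing is not given, so the replicate block is not a pairing by animal. Within spleen, B-minus-A differences correlated weakly between gates, at 0.113 to 0.2, and the highest blood pair reached 0.151. Leaving out 1 library gave 169 to 516 over the gates, 4 to 21 in Ly6C+, 5 to 147 in Ly6Cint, 31 to 154 in Ly6C-, 3 to 6 in all gates, 0 to 19 by the F test and 12 to 21 in the grafts. The cause of these shifts was not tested. With 2 libraries per tissue and gate and 1 read worth 0.847 to 1.989 ppm, a gene at a few ppm in both tissues could show no difference of moderate size.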

Other observations

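A small set of transcripts was present in blood host monocytes, mainly in the Ly6C+ and Ly6Cint gates, and at or near 0 in spleen. It was picked after its values were seen. Folr2, a folate receptor of tissue macrophages, was at 0 in all 6 spleen libraries, against 80.2 and 8.33 ppm in blood Ly6C+ and 14.0 and 2.63 in blood Ly6Cint cells. Igf2, insulin-like growth factor 2, was at 0 in spleen, against 19.3 and 14.5 in blood Ly6C+ cells. Lyve1, a hyaluronan receptor of lymphatic vessels and some macrophages, was at 0 in spleen, against 6.13 and 11.8 in blood Ly6Cint cells. Nes, which encodes nestin, stood at 117 and 0.876 in the 2 blood Ly6Cint libraries, so that 1 library held most of its reads.

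H2-M2, a nonclassical MHC class I gene, also picked after its values were seen, had 42.9 and 46.9 ppm in spleen Ly6C- cells and 0 in all 6 blood libraries, at least 23.2-fold higher in that gate against a floor of 3 pooled reads. It was at 0 in both spleen Ly6Cint libraries.

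Before transfer, the marrow Ly6C+ monocytes of the same table held Fos at 89.4 and 96.0 ppm, Dusp1 at 9.20 and 9.64 and Jun at 35.5 and 50.0. The 6 host blood libraries held more of each than these 2 marrow libraries. For Fos and Jun the marrow values lay within the range of the 6 host spleen libraries over all gates. Against the Ly6C+ gate of spleen alone, the marrow values of Fos lay below both libraries and those of Jun above both.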
